A study of Mus musculus with 16 samples.

Results

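The chaperones that hold the glucocorticoid receptor (GR) in its hormone-binding state, together with the heat shock proteins they work with, were followed as 10 genes in mouse adipose tissue. They are Hsp90aa1, Hsp90ab1, Fkbp4, Ptges3, Stip1, Hspa8, Hspa1a, Hspa1b, Dnajb1 and Bag1. Members were taken by gene name, through the transcript accession of each array probe. No measured value entered this rule, but the genes were chosen with earlier results of these data known. They had 17 of the 41174 probes on the array and were 10 of the 19096 gene symbols that could be named; all 17 probes were well above background on all 16 arrays. Tissue came from female mice. The 4 groups were control white adipose tissue (WAT), WAT of adipose-specific GR knockout mice, control brown adipose tissue (BAT) and BAT of the knockout mice, with 4 one-colour arrays each. The controls are described as wild-type. The promoter that drives the recombinase, the strain and the age are not given in the sources used here, and no treatment is named.

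The unliganded GR is handed from chaperone to chaperone. Hsp70 and its J-protein partner bind it first, Hop (Stip1) bridges Hsp70 to Hsp90, and p23 (Ptges3) and an immunophilin such as FKBP52 (Fkbp4) complete the complex that binds glucocorticoid. Heat shock factor Hsf1 drives the inducible members of these families when proteins unfold, by binding heat shock elements, which are repeats of the letters GAA in alternating orientation. In fat, GR governs adipocyte differentiation and lipid turnover.

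Promoter sequences are shown for the 3 members whose window held a piece of a heat shock element, because Hspa1a and Hspa1b moved together across the samples. Sequences are from RefSeq on GRCm38.p6, which had promoters for 7 of the 10 members; Hsp90aa1, Hsp90ab1 and Hspa8 had none there. Each line gives the 250 bases before the annotated start, 5′ to 3′ on the gene's strand, with the match to GAANNTTC (2 units of a heat shock element) in capitals. The windows are chr17:34972157-34972406 on the minus strand for Hspa1a, chr17:34959239-34959488 on the minus strand for Hspa1b and chr6:128438657-128438906 on the minus strand for Fkbp4.
Hspa1a: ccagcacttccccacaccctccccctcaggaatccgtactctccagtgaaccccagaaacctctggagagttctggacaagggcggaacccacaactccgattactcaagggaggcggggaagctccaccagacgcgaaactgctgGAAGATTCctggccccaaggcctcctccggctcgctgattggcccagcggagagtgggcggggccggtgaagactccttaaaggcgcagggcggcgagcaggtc
Hspa1b: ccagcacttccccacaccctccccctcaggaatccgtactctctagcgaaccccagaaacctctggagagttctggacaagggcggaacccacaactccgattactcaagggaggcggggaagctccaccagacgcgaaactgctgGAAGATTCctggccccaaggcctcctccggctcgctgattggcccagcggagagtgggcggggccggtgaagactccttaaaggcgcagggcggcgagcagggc
Fkbp4: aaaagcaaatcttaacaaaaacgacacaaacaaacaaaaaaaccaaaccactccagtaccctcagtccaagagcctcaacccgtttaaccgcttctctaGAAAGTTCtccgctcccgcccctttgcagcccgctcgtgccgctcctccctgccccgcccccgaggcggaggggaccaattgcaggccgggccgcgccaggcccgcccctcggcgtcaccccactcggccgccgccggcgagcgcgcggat
The Hspa1a and Hspa1b windows are identical at 247 of 250 bases (98.8%). Counted from the first base shown, the changes from Hspa1a to Hspa1b are C44T, T47C and T249G, all outside the capitals. The matched 8 letters are GAAGATTC in both, starting 104 bases before the start site, and GAAAGTTC in Fkbp4, starting 151 bases before it. On both strands, and in windows that also held 50 bases after the start, GAANNTTC was found in 7.86% of all 32851 RefSeq mouse promoters. The 2 units in either order, GAANNTTC or TTCNNGAA, were in 15.1% of all promoters and in 3 of the 7 members with a window. The matches of Hspa1a and Hspa1b are not separate, since their windows are near identical. The 3-unit form, in which NNGAA follows these letters, was found in 0.603% of them and in 0 of the 7 members with a window. These are matches of letters only.

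The brighter probes of Hspa1a and Hspa1b, the copies of the inducible Hsp70 gene, read lower in knockout WAT, and Hsp90aa1, the stress-inducible cytosolic Hsp90, was lower in knockout BAT, in each case with no overlap between the groups. No member passed the test between genotypes in either depot. Fkbp4 and Bag1 passed as higher in BAT than in WAT in both genotypes, though Bag1 overlapped in knockouts. Hsp90ab1, the constitutive Hsp90, passed as higher in control BAT than in control WAT, a call that held in 12 of 31 alternative settings. Such calls were frequent, with 33.4% of all genes and unnamed probes called between depots in controls and 30.6% in knockouts. The other members, Ptges3, Stip1, Hspa8 and Dnajb1, overlapped between genotypes in both depots on every probe. The dimmer probes of Hspa8 and Dnajb1 gave -0.65 and -0.58 in BAT, and neither passed.

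Levels are given as the log2 of the array signal after subtracting that array's 75th percentile on the same scale, so 0 is the level of a probe at that percentile and 1 unit is a 2-fold step; values of different probes are not compared with each other. The arrays of knockout white fat, numbered 1 and 2, lay closer together than repeated spots of 1 array do (SD of their log2 difference 0.0811 against 0.0877) and were counted as 1 sample, called WAT knockout 1-2, so that n = 3 there and n = 4 in the other groups. The 75th percentile was between 298 and 1035 signal units, lowest in BAT knockouts 1 and 2 (298 and 320.2). In BAT it did not overlap between genotypes. It was 561, 547, 528 and 501 in controls 1 to 4, and 497 and 486 in knockouts 3 and 4. Nr3c1, the gene for GR, was at 63.4% of the control level in knockout WAT and 48.8% in knockout BAT, with no overlap in either depot (limma with Benjamini-Hochberg adjustment, adjusted p = 0.21 and 0.0814); which exons its probe reads is not given in the sources used here. All 15 adipocyte markers were above background on every array, and the brown adipocyte markers were higher in every BAT sample (list level 2.24 to 3.14) than in every WAT sample (-4.75 to -2.20), a list level being the median log2 deviation of its genes from their means. WAT samples differed in content. WAT knockouts 1-2 and 3 had low adipocyte (-2.21 and -1.24) and high B cell (5.14 and 4.84) levels, whereas WAT knockout 4 had the highest adipocyte level (0.80) and the B cell level -1.22. WAT controls 1 and 4 carried intestinal epithelium transcripts (7.26 and 5.57, against 0.92 or less elsewhere). Skeletal muscle levels in BAT were between -1.14 and 5.01. In such bulk tissue, fewer cells of a type and less RNA per cell cannot be told apart.

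**Figure D1:**
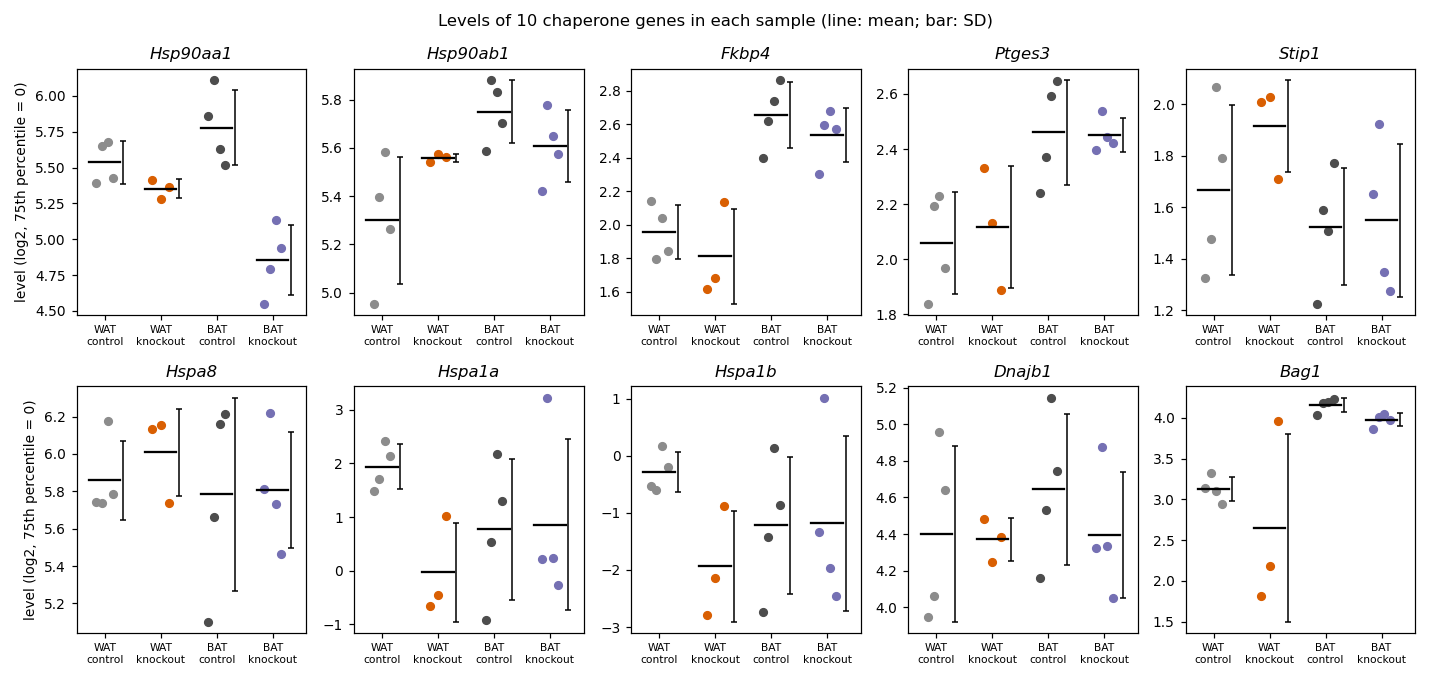
Levels of the 10 members in each sample, as log2 signal with the 75th percentile of its array set to 0, by group; points are samples (n = 3 in knockout WAT, n = 4 in the other groups), lines are means and bars are SD. Hsp90aa1 in knockout BAT, and Hspa1a and Hspa1b in knockout WAT, lie below all their controls, and Fkbp4 is higher in BAT than in WAT.

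The Hsp90 pair came first in the comparison of genotypes. Hsp90aa1 was measured by 1 probe. Its levels were 5.86, 6.11, 5.63 and 5.52 in control BAT and 4.55, 4.79, 5.14 and 4.94 in knockout BAT. Every knockout sample lay below every control. The difference was -0.93 ± 0.18 (SE; 95% interval -1.30 to -0.55), which is 52.7% of the control level, with an unadjusted p of 0.000129 and an adjusted p of 0.103 (limma, n = 4 each). The exact two-sided permutation p was 0.0286, the smallest that these group sizes allow. Of all 25107 genes and unnamed probes tested, 4.31% had a larger difference in either direction. On the 4 slides, each of which held 1 array of each group, the difference between the BAT arrays was -1.56, -0.84, -0.72 and -0.58; with slide as a block in the fit it was -0.93 (limma adjusted p = 0.251). The endothelial marker list (8 of 8 genes above background in every BAT sample) also did not overlap, at 0.01 to 0.15 in control BAT and 1.02, 0.79, 0.18 and 0.30 in knockouts 1 to 4. Among the 4 knockouts its order was the inverse of that of Hsp90aa1. The 75th percentile of the array was lower in every BAT knockout than in every BAT control. Among the 4 knockouts the 75th percentile had the same order as Hsp90aa1. The part of the endothelial list and of array signal in the difference was not tested.

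In WAT, Hsp90aa1 stood at 5.39, 5.65, 5.68 and 5.43 in controls and 5.41, 5.28 and 5.37 in knockouts. The groups overlapped, and the difference was -0.18 (95% interval -0.59 to 0.22; limma adjusted p = 0.549). The difference between depots in the knockout effect was -0.74 ± 0.26 (SE), and it did not pass (limma adjusted p = 0.391). The BAT difference itself stayed between -1.09 and -0.74 over 31 alternative settings. It passed the threshold in 3 of them: without WAT knockout 4 (limma adjusted p = 0.0437) and with the B cell or the adipocyte level as a covariate (0.0342 and 0.0348). Without the low-signal arrays of BAT knockouts 1 and 2 it was -0.74 (limma adjusted p = 1), and with the skeletal muscle level as a covariate it was -1.09 (0.231).

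Hsp90ab1 had a brighter and a dimmer probe. By the brighter probe its levels were 5.59, 5.88, 5.83 and 5.70 in control BAT and 5.42, 5.78, 5.65 and 5.57 in knockout BAT, overlapping, with a difference of -0.14 (95% interval -0.49 to 0.20; limma adjusted p = 0.782). By the dimmer probe they were 2.40, 2.88, 2.83 and 2.90 in control BAT and 1.67, 2.34, 2.14 and 2.36 in knockout BAT. All knockouts were lower than all controls on this probe, by 0.62 on the log2 scale (95% interval -1.05 to -0.20; adjusted p = 0.18 in the limma fit with every probe as its own feature). The 2 probes of the gene thus differed by 0.48 in their knockout difference in BAT, with no overlap between groups in the gap between probes (exact permutation p = 0.0286). This was the only one of 14 such probe comparisons, over 7 genes and both depots, in which the gap did not overlap. In WAT the brighter probe read 4.95, 5.40, 5.58 and 5.26 in controls and 5.54, 5.58 and 5.56 in knockouts, a difference of 0.26 (95% interval -0.11 to 0.63; limma adjusted p = 0.385), and the groups overlapped.

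**Figure D2:**
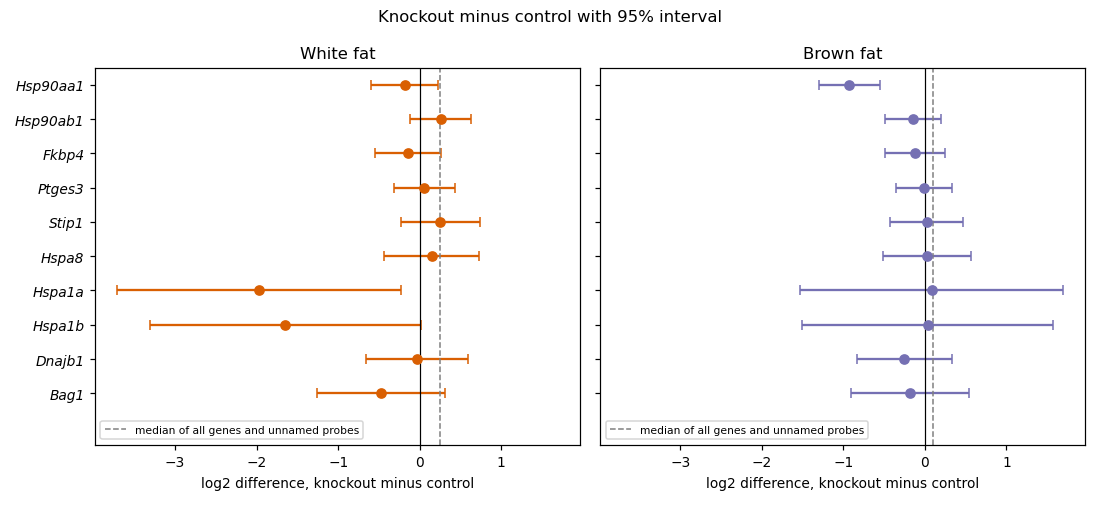
Knockout minus control for each member in white fat (left) and brown fat (right), as log2 differences on the horizontal axis; points are estimates by limma, bars are 95% intervals, and the dashed line is the median of all genes and unnamed probes (0.24 in WAT, 0.10 in BAT). The intervals of Hspa1a in WAT and Hsp90aa1 in BAT lie below 0, and those of Hspa1a and Hspa1b are the widest in both depots.

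Fkbp4, Ptges3 and Stip1, whose products attach to Hsp90, overlapped between genotypes in both depots. Fkbp4 encodes FKBP52, the immunophilin that favours hormone binding and transport of GR. It stood at 2.14, 1.80, 2.04 and 1.84 in control WAT, 1.62, 1.68 and 2.14 in knockout WAT, 2.40, 2.62, 2.74 and 2.87 in control BAT and 2.30, 2.60, 2.68 and 2.57 in knockout BAT. Genotypes overlapped in both depots, with differences of -0.15 (95% interval -0.55 to 0.26) in WAT and -0.12 (-0.49 to 0.25) in BAT. Its dimmer probe gave -0.09 and -0.01.

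Ptges3 encodes p23, which holds Hsp90 in its closed, client-bound form. Its levels ran from 1.84 to 2.23 in control WAT, 1.89 to 2.33 in knockout WAT, 2.24 to 2.65 in control BAT and 2.40 to 2.54 in knockout BAT. The differences between genotypes were 0.06 (95% interval -0.31 to 0.43) and -0.01 (-0.36 to 0.33). Stip1 encodes Hop, the bridge between Hsp70 and Hsp90, and was measured by 1 probe. It ran from 1.33 to 2.07 and 1.71 to 2.03 in control and knockout WAT, and from 1.23 to 1.77 and 1.27 to 1.92 in control and knockout BAT. Its differences were 0.25 (-0.23 to 0.73) and 0.03 (-0.42 to 0.47).

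The Hsp70 genes differed in how far they varied. Over the 15 samples the SD was 0.32 for Hspa8, 1.25 for Hspa1a and 1.15 for Hspa1b. Within control BAT the SD of Hspa8 was 0.52. Hspa8 encodes Hsc70, the constitutive cytosolic Hsp70. Its brighter probe read 5.74, 5.74, 6.17 and 5.78 in control WAT, 6.13, 6.15 and 5.74 in knockout WAT, 5.10, 5.66, 6.16 and 6.21 in control BAT and 5.81, 6.22, 5.73 and 5.46 in knockout BAT. The genotypes overlapped in both depots, with differences of 0.15 (95% interval -0.43 to 0.73) in WAT and 0.02 (-0.52 to 0.56) in BAT. Its dimmer probe gave -0.65 in BAT (limma over all probes, adjusted p = 0.324), with overlapping groups.

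Hspa1a and Hspa1b encode the same inducible Hsp70 from neighbouring gene copies. Since the copies are near identical, whether each probe reads only 1 of them is uncertain, and the probe sequences were not used here. Hspa1a stood at 1.49, 1.71, 2.42 and 2.13 in control WAT and at -0.66, -0.45 and 1.01 in knockout WAT. The highest knockout, sample 4, was still below the lowest control. The difference was -1.97 ± 0.81 (SE; 95% interval -3.71 to -0.22), 25.6% of the control level, with an unadjusted p of 0.0297 and a limma adjusted p of 0.26. The exact permutation p was 0.0286, again the smallest possible, and 1.42% of all genes and unnamed probes had a larger difference.

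The second Hspa1a probe gave 0.87, 1.25, 2.10 and 1.66 in control WAT and -0.90, -0.70 and 0.67 in knockout WAT, a difference of -1.78 with no overlap. Hspa1b stood at -0.52, -0.60, 0.17 and -0.19 in control WAT and -2.79, -2.14 and -0.88 in knockout WAT. Its groups did not overlap either, and the difference was -1.65 ± 0.77 (SE; 95% interval -3.31 to 0.02; limma adjusted p = 0.28), 31.9% of the control level. The dimmer Hspa1b probe, which lay at -3.06 to -1.55 in WAT, gave -0.34 with overlapping groups.

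The WAT difference changed in size with the knockouts that entered. Without WAT knockout 4 the Hspa1a difference was -2.49 and passed (limma adjusted p = 0.0475). Without WAT knockouts 1-2 and 3 it was -0.92 (adjusted p = 0.752; the lone knockout is then assumed to vary like the other groups). With the adipocyte level as a covariate it was -1.56 (limma adjusted p = 0.41), and without WAT controls 1 and 4 it was -2.09 (0.456). Over 31 alternatives it stayed below 0. The immediate early genes, which respond to handling, had list levels of -0.27 to 0.20 in control WAT and -0.75 to -0.03 in knockout WAT. Other marker lists were lower in all 3 knockouts than in all 4 WAT controls. Mesothelium stood at -0.33, 1.05 and 3.44 in WAT knockouts 1-2, 3 and 4, against 3.88 to 5.21 in controls. Mast cell markers stood at -2.19, -1.38 and -0.16 against 1.03 to 2.22, and the red cell list (2 of 4 genes tested) at -4.50, -3.09 and 0.10 against 0.37 to 1.25. In these lists WAT knockout 4 was the highest knockout, as for Hspa1a, whereas for macrophage markers (0.33, 0.61 and 0.13 against 1.01 to 1.85) it was the lowest. The part of these lists and of the immediate early genes in the Hspa1a difference was not tested.

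In BAT the same genes varied within groups. Hspa1a stood at -0.92, 0.54, 2.18 and 1.30 in controls and 0.23, 3.22, 0.24 and -0.27 in knockouts. BAT knockout 2 was far above the other knockouts, and the groups overlapped over most of their range. The difference was 0.08 (95% interval -1.53 to 1.70; limma adjusted p = 0.983), and the interval holds changes of over 2-fold in either direction. Hspa1b followed it at -2.73, -1.42, 0.14 and -0.86 in controls and -1.34, 1.02, -1.96 and -2.46 in knockouts, a difference of 0.03 (-1.51 to 1.57). The knockout effect differed between depots by 2.05 ± 1.11 (SE) for Hspa1a, which did not pass (limma adjusted p = 0.539). BAT knockout 2 also had the highest skeletal muscle level (5.01), and BAT knockout 3, with Hspa1a at 0.24, had the next highest (4.69). With the skeletal muscle level as a covariate the difference was -0.35 for Hspa1a and -0.39 for Hspa1b (limma adjusted p = 0.949 and 0.941).

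Hspa1a and Hspa1b were each other's nearest gene over the 15 samples, with each gene centred on its own mean. The root mean square difference between their levels was 0.22, against 0.83 (from Hspa1a) and 0.74 (from Hspa1b) for the next gene, P4ha2, a collagen prolyl hydroxylase subunit. The SD of Hspa1a over the samples was 1.25. Hsp90aa1 was nearest to Cct3 (0.16), a subunit of the cytosolic chaperonin, then to Tbce and Ccnc (0.20 and 0.21). Hspa8 had Stip1 second (0.19), and Dnajb1 had Hspa8 second (0.27). These distances are descriptions over shared arrays.

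The partners of Hsp70 were the last members. Dnajb1 encodes Hsp40, the J-protein that starts the Hsp70 cycle. It stood at 3.95, 4.06, 4.96 and 4.64 in control WAT, 4.48, 4.25 and 4.38 in knockout WAT, 4.16, 4.53, 5.15 and 4.75 in control BAT and 4.32, 4.87, 4.33 and 4.05 in knockout BAT. All groups overlapped between genotypes, with differences of -0.03 (95% interval -0.65 to 0.59) and -0.25 (-0.83 to 0.33). The dimmer probe gave -0.58 in BAT (limma over all probes, adjusted p = 0.325), with overlap.

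Bag1 encodes a nucleotide exchange factor of Hsp70 that can also bind GR and was measured by 1 probe. Its levels were 3.14, 3.32, 3.10 and 2.95 in control WAT and 1.81, 2.18 and 3.96 in knockout WAT. WAT knockouts 1-2 and 3 were below all controls and WAT knockout 4 was above them all. The difference of -0.48 ± 0.37 (SE; limma adjusted p = 0.438) was therefore set by which knockouts entered: it was -1.13 without WAT knockout 4 (adjusted p = 0.000411) and 0.83 without WAT knockouts 1-2 and 3 (0.161). With the adipocyte level as a covariate it was 0.07 (0.812). The adipocyte level ran in the same order in these 3 samples (-2.21, -1.24 and 0.80). In BAT, Bag1 was at 4.03, 4.18, 4.19 and 4.23 in controls and 3.87, 4.01, 4.05 and 3.97 in knockouts, a difference of -0.18 (95% interval -0.91 to 0.55; exact permutation p = 0.0571), with 1 control inside the range of the knockouts.

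**Figure D3:**
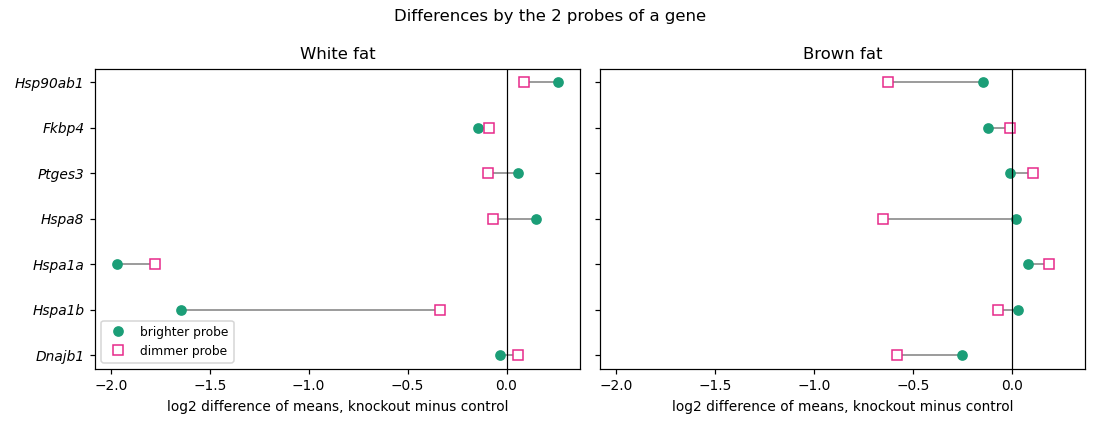
Knockout minus control by the brighter (filled circle) and dimmer (open square) probe of the 7 members with 2 probes, in white fat (left) and brown fat (right), as log2 differences of group means. The probes of Hspa1b in WAT (-1.65 and -0.34) and of Hsp90ab1 (-0.14 and -0.62) and Hspa8 (0.02 and -0.65) in BAT lie far apart, and both probes of Hspa1a are low in WAT.

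Counted over the members, 0 of 10 were called between genotypes in WAT, in BAT or in the interaction (limma, adjusted p under 0.05), where 0.0597%, 0.0159% and 0.00398% of all genes and unnamed probes were called. At an unadjusted p under 0.05, 1 member passed in each (Hspa1a, Hsp90aa1 and Hsp90aa1), against 17.9%, 13.1% and 10.4% of all. Groups did not overlap for 2 members in WAT, both lower, against 1.23% of all features lower and 7.7% in either direction, and for 1 member in BAT, lower, against 8.62% lower. The 2 in WAT were Hspa1a and Hspa1b, whose probes may not tell the copies apart, so they may be 1 signal. Of the 10 members 4 were above 0 in each depot, against 66.5% of all features in WAT and 60.2% in BAT. The medians of the members' differences were -0.09 in WAT and -0.06 in BAT, beside 0.24 and 0.10 over all features. With every probe as its own feature, 0 of the 17 probes were called in WAT, in BAT or in the interaction, and 5 and 4 between depots in controls and knockouts. The shares of all 33050 probes called were 0.0424%, 0.0182%, 0.00303%, 34.3% and 29.8%.

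Between depots, calls were frequent: 33.4% of all features were called in controls and 30.6% in knockouts, and the members' share was near that. In controls, 3 of 10 members were higher in BAT and 0 were lower, beside 19.1% higher and 14.3% lower of all features; 4 were higher without overlap, against 24.8%. Fkbp4 was higher by 0.70 ± 0.17 (SE; limma adjusted p = 0.00665), a 1.62-fold step, and its dimmer probe gave 0.70. Bag1 was higher by 1.03 ± 0.34 (limma adjusted p = 0.0307) and Hsp90ab1 by 0.45 ± 0.16 (0.0442). In each of these genes the 4 control BAT samples were all above the 4 control WAT samples. Over 31 alternatives the call held in 28 for Fkbp4, in 20 for Bag1 and in 12 for Hsp90ab1. Leaving out 1 sample at a time, Fkbp4 passed in all 15 fits. Bag1 passed in 8, and lost the call without any 1 of WAT controls 1, 3 and 4 or BAT controls 1 to 4 (limma adjusted p up to 0.0785). Hsp90ab1 passed in 4, without WAT control 3, WAT knockouts 1-2 or 4, or BAT knockout 1, and reached an adjusted p of 0.116 (limma) in the others. With slide as a block Hsp90ab1 did not pass (limma adjusted p = 0.07), and under quantile normalization it was at -0.25 (0.345). Quantile normalization also ended the calls of Fkbp4 (0.39, limma adjusted p = 0.0664) and Bag1 (0.60, 0.135). The only member called was then Hspa8, lower in BAT. With the B cell level as a covariate Bag1 was at 0.25 (limma adjusted p = 0.524) and Fkbp4 at 0.51 (0.0508). With the skeletal muscle level, which itself ran from -3.61 to -2.11 in WAT and from -1.14 to 5.01 in BAT, 0 members were called. Ptges3 also had no overlap, at 0.40 ± 0.16 (SE), and did not pass (0.0678).

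In knockouts, 2 of 10 members were higher in BAT and 0 lower, beside 16.7% and 13.9% of all features; 2 were higher and 1 lower without overlap, against 14.8% and 10.7%. Fkbp4 was higher by 0.73 ± 0.19 (SE; limma adjusted p = 0.01), and Bag1 by 1.32 ± 0.37 (0.0146). Each call held in 23 of 31 alternatives, and neither held without WAT knockouts 1-2 (limma adjusted p = 0.0531 and 0.0887) or without WAT knockout 3 (0.052 and 0.0836). Bag1 overlapped here, because WAT knockout 4 (3.96) lay inside the BAT range; without WAT knockouts 1-2 and 3 its depot difference was 0.01 (limma adjusted p = 0.985) and that of Fkbp4 was 0.40 (0.366). Hsp90aa1 was lower in knockout BAT than in knockout WAT, by 0.50 ± 0.19 (SE), without overlap and without passing (limma adjusted p = 0.0614). For Hsp90aa1 the order of the groups was control BAT (mean 5.78), control WAT (5.54), knockout WAT (5.35) and knockout BAT (4.85). Neighbours in this order overlapped, except knockout WAT and knockout BAT.

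The wider chaperone network gives these values their setting. Of 129 other chaperone genes listed, 126 were on the array and 125 were tested. In the knockout comparisons and the interaction 0 of 125 were called (limma, adjusted p under 0.05). Overlap in BAT was examined for 124 of these genes. Without overlap, 33 were lower in knockouts and 8 were higher, against 8.62% lower and 9.34% higher of all features. Among the Hsp90 cochaperones, 6 of 21 were lower and 4 were higher without overlap in BAT. In WAT the counts were 0 lower and 10 higher of 125, against 1.23% and 6.47%.

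The chaperonins, which fold actin, tubulin and mitochondrial proteins inside a barrel, were the list with the lowest median in BAT. Of 13 genes, 12 were lower in knockouts, 7 without overlap, and the median difference was -0.44. Over all features in BAT, 60.2% were above 0 and 8.62% were lower without overlap. The list is named here because its median was the lowest, so its counts are descriptions. Cct3 was the gene closest to Hsp90aa1 over these same samples, so its like pattern here is not a separate result. Cct3 stood at 1.56, 1.86, 1.63 and 1.57 in control BAT and 0.21, 0.70, 1.16 and 1.11 in knockout BAT. All knockouts were lower, by 0.86 ± 0.20 on the log2 scale (SE; limma adjusted p = 0.174). Cct6a gave -1.17 (0.189). The chaperonin list level in BAT was 0.40 to 0.48 in controls and -0.25, -0.22, 0.14 and 0.36 in knockouts 1 to 4. The 2 lowest are the arrays with the lowest 75th percentile; the part of array signal was not tested.

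Hspa4 and Hspa4l, large Hsp70 relatives that act as exchange factors, were also below all controls in knockout BAT. Hspa4 stood at 2.54, 2.64, 2.64 and 2.81 in control BAT and 1.26, 1.70, 2.26 and 2.38 in knockout BAT, a difference of -0.76 (limma adjusted p = 0.212), and Hspa4l gave -0.78 (0.192). Neither passed. The other large relatives overlapped: Hsph1 ran from 1.84 to 3.29 in control BAT and 1.70 to 3.03 in knockout BAT, and Hyou1 from 1.32 to 1.77 and 1.45 to 1.91. Fkbp5, whose product FKBP51 opposes FKBP52 in the GR complex and which is a known GR target, stood at -2.58, -2.60, -1.34 and -1.77 in control BAT and -1.93, 0.95, -0.86 and -2.34 in knockout BAT. Its difference was 1.03 ± 0.66 (SE; limma adjusted p = 0.545), with overlap, and its highest value was in BAT knockout 2, as for Hspa1a.

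In WAT, small heat shock protein Hspb1 stood at 3.57, 3.75, 3.03 and 3.28 in controls and 0.87, 1.16 and 3.41 in knockouts. Its difference was -1.60 (limma adjusted p = 0.212), and WAT knockouts 1-2 and 3 were below all controls, as for Bag1. Bag3, the Hsp70 cofactor that works with small heat shock proteins, had the same order at 1.01, 1.23 and 2.86 in knockouts and 2.36 to 3.25 in controls. Hsf1 was higher in all 3 knockouts (2.16, 1.97 and 1.63) than in all 4 controls (1.05 to 1.47), by 0.64 ± 0.20 (SE; limma adjusted p = 0.218), while Hspa1a and Hspa1b were lower there.

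**Figure D4:**
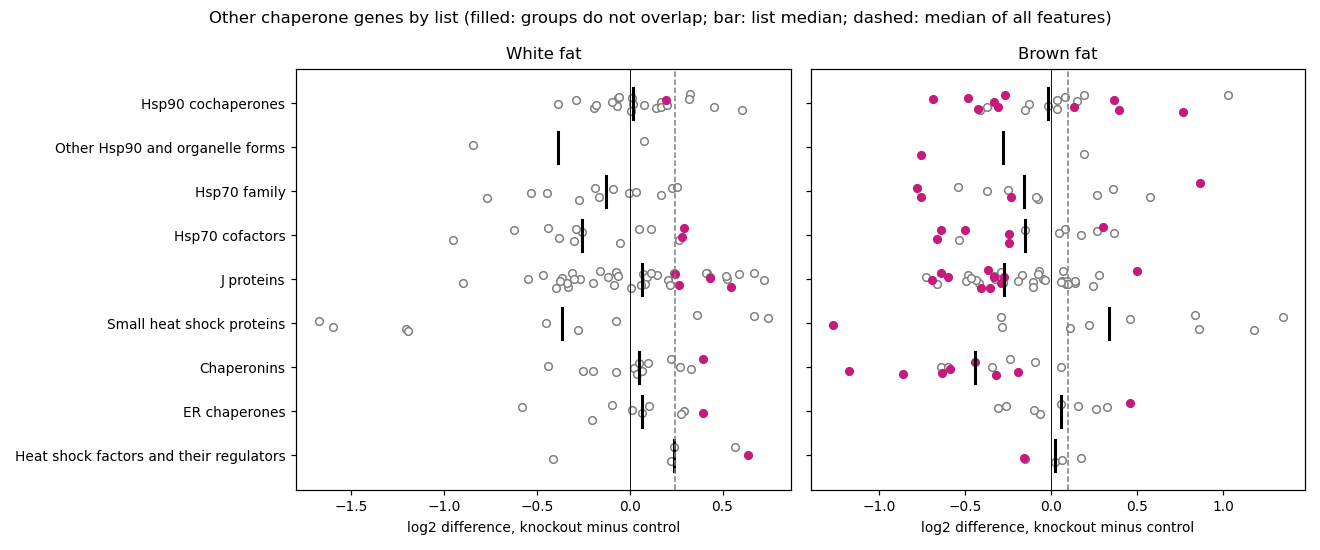
Knockout minus control for 125 other chaperone genes by list in white fat (left) and brown fat (right), as log2 differences; each point is a gene, filled where the groups do not overlap, the black bar is the list median and the dashed line is the median of all genes and unnamed probes. In BAT 12 of 13 chaperonins lie below 0, and 7 of them are filled. Of all features in BAT, 60.2% were above 0 and 8.62% were lower without overlap.

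Between depots, 44 of the 125 genes were higher and 9 lower in control BAT (limma, adjusted p under 0.05), against 19.1% and 14.3% of all features. In knockout BAT 38 were higher and 14 lower, against 16.7% and 13.9%. Of the genes past the threshold, the following were among the 5 with the smallest p in their list. Hspa9, the mitochondrial Hsp70, rose by 2.003 in controls and 2.36 in knockouts (limma adjusted p = 1.17e-05 and 9.71e-06). Its cofactor Grpel1 rose by 2.22 and 2.28, and its J-protein Dnaja3 by 2.70 and 2.71. The mitochondrial Hsp60 gene Hspd1 rose by 1.55 and 1.46. Trap1, the mitochondrial Hsp90, rose by 1.49 and 1.58, with overlap in knockouts. These genes are a selection. The same rule also held for Dnajb3 (2.84 and 3.13), and in controls for Hspb2 (-2.02) and Hspa12a (-1.20), which were lower in BAT. Hsp90b1, which encodes GRP94 of the endoplasmic reticulum, fell by 0.72 and 0.61 on the log2 scale. Of 9 ER chaperones tested, 3 were lower and 0 higher in control BAT, and 4 lower and 0 higher in knockout BAT. Sdf2l1 fell by 2.45 and 2.48, and Pdia4 by 0.99 and 0.93 on the log2 scale. Hspa5, the ER Hsp70 BiP, had a mean level of 4.63 in control WAT and 5.04 in control BAT and did not pass (limma adjusted p = 0.103), and its ER relative Hyou1 rose by 0.64 in knockouts (0.0238).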

How the data were processed

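Total RNA of 16 samples was labelled with Cy3 and hybridised to whole-genome arrays, 1 sample per array, with 4 slides that each held 1 array of each group; array position and group cannot be told apart. The deposited signals are intensity values, from Agilent Feature Extraction 12.0.0.7 per the file headers: the processed signal is background-subtracted and not scaled between arrays. Other deposited columns are flags for outlier spots, background and saturation. The deposited value table, also intensity, equals the mean processed signal per probe within a relative difference of 0.0001.

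Here, flagged outlier spots were dropped, repeated spots averaged, and log2 of the processed signal was centred on the 75th percentile of the array. A probe was kept when well above background on at least 3 arrays of a group. Names came from matching transcript accessions to RefSeq (GRCm38.p6), which named 28223 of 41174 probes; the brightest probe stood for a gene. A linear model with 1 mean per group was fitted to 15 samples and 25107 features (16677 genes and 8430 unnamed probes) with limma 3.58.1 in R 4.3.3, with two-sided tests, Benjamini-Hochberg adjustment over all features and a threshold of 0.05. P-values measure the spread between these samples, which the submitters call biological replicates. The procedure was tested on simulated data, drawn independently for each sample, with changes added in knockout WAT only. Shared differences in tissue content were not part of that simulation, so it does not cover them. All 10 members were named, with others by smallest p within each list; genes nearest in pattern were ranked by root mean square difference. Members and lists were chosen with earlier results of these data known. The number of arrays limits the precision.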

Additional observations from a re-analysis of the deposited data

Results flagged for a closer look

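Among 30 groups of 4 samples in which member levels were examined, 2 held a sample far from the others by Dixon's ratio, and chance gives about 1 in 20 such groups. Hspa8, the constitutive Hsp70 gene, was at 6.17 in WAT control 3, with the other controls between 5.74 and 5.78. Hspa1a, the inducible Hsp70 gene, was at 3.22 in BAT knockout 2, with the other knockouts between -0.27 and 0.24.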

How the results depend on the processing

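Over 31 alternatives (30 for the interaction), 25 of the 50 member differences (10 members in 5 comparisons) changed sign under at least 1, as for Fkbp4 in the interaction (12 of 30) and Dnajb1 between depots in knockouts (9 of 31); the cause was not tested. Of the 32 followed singly below (each member between genotypes, and the interactions and depot differences of members described for them), 13 changed sign and 19 did not. The counts of members (and of probes) called between depots moved most. In control BAT against control WAT the counts of 3 members and 5 probes became 1 and 2 under quantile normalization, 1 and 2 without WAT controls 1 and 4, 0 and 0 with the skeletal muscle level as a covariate, and 3 probes with the array median as centre. In knockouts the counts of 2 members and 4 probes became 5 and 8 under quantile normalization, 1 and 2 under normexp background correction and without BAT knockouts 1 and 2, 0 and 2 with the B cell or the adipocyte level as a covariate, and 0 and 0 with the muscle covariate, with only the groups compared in the fit, and without WAT knockouts 1-2 and 3. Under quantile normalization the 1 member called in controls was Hspa8, which was lower in BAT, and Fkbp4, Bag1 and Hsp90ab1 did not pass. The 5 called in knockouts were Fkbp4 and Bag1, higher in BAT, and Hsp90aa1, Hsp90ab1 and Hspa8, lower in BAT. In BAT knockouts against controls, 1 member and 1 probe were called with the B cell or adipocyte covariate. Leaving out 1 sample at a time, the counts of members and of probes ranged from 0 to 2 in WAT, from 0 to 1 in BAT and in the interaction, from 1 to 4 members and 2 to 7 probes between depots in controls and from 0 to 3 members and 2 to 5 probes in knockouts.

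Values that changed sign were as follows, on the log2 scale. With the adipocyte covariate, Bag1 was 0.071 in WAT and -0.33 in the interaction, Ptges3 was -0.046 in WAT and 0.0042 in BAT, and Hspa1b was -0.034 in BAT. With the array median as centre, Hspa1a, Hspa1b, Hspa8 and Stip1 were -0.062, -0.11, -0.12 and -0.12 in BAT, and Ptges3 was -0.081 in WAT. With the median of a gene's probes, Hspa1b, Hspa8 and Ptges3 were -0.017, -0.32 and 0.048 in BAT, Dnajb1 and Ptges3 were 0.015 and -0.017 in WAT, and Hsp90ab1 was -0.015 between depots in knockouts. Under normexp, Hspa8 and Stip1 were -0.12 and -0.089 in BAT. Under quantile normalization, Dnajb1 was 0.020 in WAT, Ptges3 was 0.031 in BAT, and Hsp90ab1 was -0.25 and -0.61 between depots in controls and knockouts. With the muscle covariate, Hspa1a, Hspa1b and Ptges3 were -0.35, -0.39 and 0.078 in BAT and Hsp90ab1 was -0.17 between depots in knockouts. With slide as a block, Dnajb1 was 0.0028 in WAT, Hsp90ab1 between depots in controls no longer passed (0.45, limma adjusted p = 0.07), and calls over all features went from 15 to 9 in WAT and from 4 to 0 in BAT. Without BAT knockouts 1 and 2, Hspa1a, Hspa1b, Hspa8 and Stip1 were -0.79, -0.99, -0.19 and -0.21 in BAT. Without WAT controls 1 and 4, Ptges3 was -0.095 in WAT. Without WAT knockouts 1-2 and 3, Bag1, Fkbp4, Hspa8 and Ptges3 were 0.83, 0.18, -0.12 and -0.17 in WAT, and Bag1 was -1.02 in the interaction. Leaving out 1 sample at a time, Ptges3 ranged from -0.049 to 0.17 and Dnajb1 from -0.18 to 0.16 in WAT. In BAT the ranges were -0.085 to 0.051 for Ptges3, -0.099 to 0.12 for Stip1, -0.20 to 0.16 for Hspa8, -0.71 to 0.55 for Hspa1a and -0.70 to 0.49 for Hspa1b. For Bag1 in the interaction the range was -0.13 to 0.95, and for Hsp90ab1 between depots in knockouts it was -0.011 to 0.11.

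Within a depot, the shared replicate numbers did not pair controls with knockouts. Deviations of same-numbered control and knockout arrays correlated between -0.47 and 0.18. Of 8 arrays in each depot, 0 in WAT and 4 in BAT correlated best with their own number. Same-numbered WAT and BAT arrays of 1 genotype were not correlated, so whether they share animals is unknown. The depot comparisons treated them as independent. With the replicate number as a block, 0 members were called between genotypes in either depot, Hsp90aa1 in BAT was unchanged at -0.93 with an adjusted p of 0.245 (limma), and calls over all features again went to 9 in WAT and to 0 in BAT. The adipocyte covariate and the omission of WAT knockouts 1-2 and 3 were added after the data were seen. Signal was well above background for every member on every array; the number of samples limits these comparisons, and 75th percentiles differed between arrays.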
